A study of Homo sapiens with 6 samples.

Results

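The 10 genes described here encode the enzymes of transsulfuration, of the methionine cycle and of serine synthesis, as measured by RNA sequencing in cells labelled A549, a human lung adenocarcinoma line in wide use. They were taken by name from a table of 19876 gene symbols: CBS, its near-identical copy LOC102724560 and CTH for transsulfuration, MAT2A, MAT2B, AHCY and MTR for the methionine cycle, and PHGDH, PSAT1 and PSPH for serine synthesis. Both groups were labelled as wild-type A549 cells grown in the same serum-containing medium. The control group of 3 libraries received phosphate-buffered saline (PBS), and the treated group of 3 libraries received rhTR11B, a name that the labels do not spell out. The labels give neither dose nor time. The replicates are called biological, but nothing says that they came from separate cultures, so a p-value here covers the variation among these 6 libraries and that variation may be technical.

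Methionine is turned into S-adenosylmethionine, the methyl donor of the cell, and the product left after methyl transfer is hydrolysed to homocysteine. Homocysteine is either methylated back to methionine or joined with serine by transsulfuration, which makes cysteine for glutathione and proteins and can release hydrogen sulfide. Serine comes from outside the cell or from a side branch of glycolysis in 3 enzymatic steps, and it also supplies the carbon units of folate metabolism.

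The pair was chosen by its counts: the lower count of LOC102724560 with rhTR11B is what drew attention to it, so the values of that gene, of CBS and of their sum are descriptions with no test. The other 8 genes were listed for their function, with no threshold, but with earlier results of these data known. The same holds for the pathway lists below, so their shares set against all genes are descriptions. Library totals ran from 36315751 to 38148838 counts. Reads of the 13 genes on the mitochondrial genome made up 6.63% to 7.71% of the PBS libraries and 7.88% to 10.4% of the rhTR11B libraries. Those of 83 ribosomal protein genes made up 5.01% to 5.16% and 3.86% to 4.58%. Replicate 3 of rhTR11B had the highest mitochondrial and the lowest ribosomal share, and it stood apart on the first principal component at 25.7, where the other rhTR11B libraries had 2.66 and 8.63. The part of these differences in the results below was not tested. Of 5 epithelial genes, KRT8 (31538 to 36616 counts) and KRT18 (23189 to 26955) were abundant, while CDH1 had 0 to 1 counts, KRT19 0 to 5 and EPCAM 0 to 10 in all 6 libraries. A549 is known for a homozygous deletion of CDKN2A, which often takes the neighbouring MTAP with it, yet CDKN2A had 1593 to 2310 counts and MTAP 1568 to 2013. Both were chosen after their values were seen. These counts go against the label in both groups alike, so the libraries are called by their treatment below, and the identity of the line was not tested further. The 5 fibroblast genes summed to 106 to 141 counts with PBS and 153 to 241 with rhTR11B, mostly from COL1A1, with DCN and PDGFRB at 0 or 1 in every library. Endothelial and leukocyte genes summed to 5 to 16 and 7 to 21 counts. In bulk RNA, fewer cells of a kind and less RNA per cell cannot be told apart.

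CBS, which joins homocysteine to serine, lies on chromosome 21 at 43053191 to 43076873 of GRCh38.p14. LOC102724560, which GENCODE names CBSL, lies on the same chromosome at 6444869 to 6468621. Those of their annotated transcripts that have equal length and a coding sequence are almost letter for letter the same. Other transcripts were not compared in this way. Transcripts CBS-203 and CBSL-206 of GENCODE 29 are 2453 bases long and differ at 1 base. It lies in the coding sequence and is shown in capitals in the stretch from base 777 to base 837 of each transcript, printed because it is the only place where reads from these 2 transcripts can be told apart.

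CBS: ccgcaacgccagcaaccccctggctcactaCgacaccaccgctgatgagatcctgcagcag
LOC102724560: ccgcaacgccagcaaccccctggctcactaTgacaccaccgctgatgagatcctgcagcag

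Of the 2354 windows of 100 bases in CBS-203, 95.8% occur unchanged in transcripts of the copy, and of the windows of 150 bases 93.5% do. Of the RefSeq windows of 300 bases around annotated starts, the most alike was taken for each gene, so others may differ more. In these windows (chr21:43075786-43076085 and chr21:6467464-6467763, both on the minus strand of GRCh38.p14), a single base differed, 117 bases before the start. It is in capitals in the 91 bases around it, which are shown because they carry the only difference between the windows.

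CBS, chr21:43075907-43075997: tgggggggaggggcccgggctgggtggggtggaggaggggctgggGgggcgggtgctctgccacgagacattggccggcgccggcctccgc
LOC102724560, chr21:6467585-6467675: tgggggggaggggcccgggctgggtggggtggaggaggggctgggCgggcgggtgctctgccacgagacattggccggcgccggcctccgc

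How reads that match both copies were counted is not given in the sources used here, so the split between the 2 symbols is uncertain. The sum is the safer measure, but it too would miss reads that were counted for neither.

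Compared per length, in the authors' FPKM (counts scaled by gene length and library total), levels spanned about 2 orders of magnitude. MAT2A, the catalytic subunit of the methionine adenosyltransferase of dividing cells, was highest at 129.9 ± 6.94 FPKM over all 6 libraries (SD). AHCY, which hydrolyses S-adenosylhomocysteine, followed at 99.3 ± 8.27, then PSAT1 at 48.9 ± 5.13 and MAT2B, the regulatory subunit of the adenosyltransferase, at 30.4 ± 2.93. CBS and its copy together had 11.5 ± 1.42 FPKM, PSPH 9.99 ± 1.03 and MTR 8.19 ± 0.402. PHGDH had 3.56 ± 0.320, and CTH, which cleaves cystathionine to cysteine, was lowest at 1.37 ± 0.112. In this order the summed pair overlapped PSPH, and PSPH overlapped MTR. All other neighbours were apart in every library. The first enzyme of serine synthesis, PHGDH, thus had a lower FPKM than the enzymes of the next steps, PSAT1 and PSPH. CTH had a lower one than the CBS pair before it. The level and place of that pair rest on how reads that match both copies were counted. The FPKM values imply a length of 7645 bases for PHGDH against 2206 for PSAT1, so their raw counts lay closer. For PSPH they imply 3358 bases, and its raw counts (1043 to 1426) overlapped those of PHGDH (901 to 1147). AHCY had 14594 to 19136 raw counts against 12726 to 14603 for MAT2A. It lay lower in FPKM at an implied 4551 against 2817 bases. The order by FPKM thus rests on implied lengths, which were not checked.

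**Figure D1:**
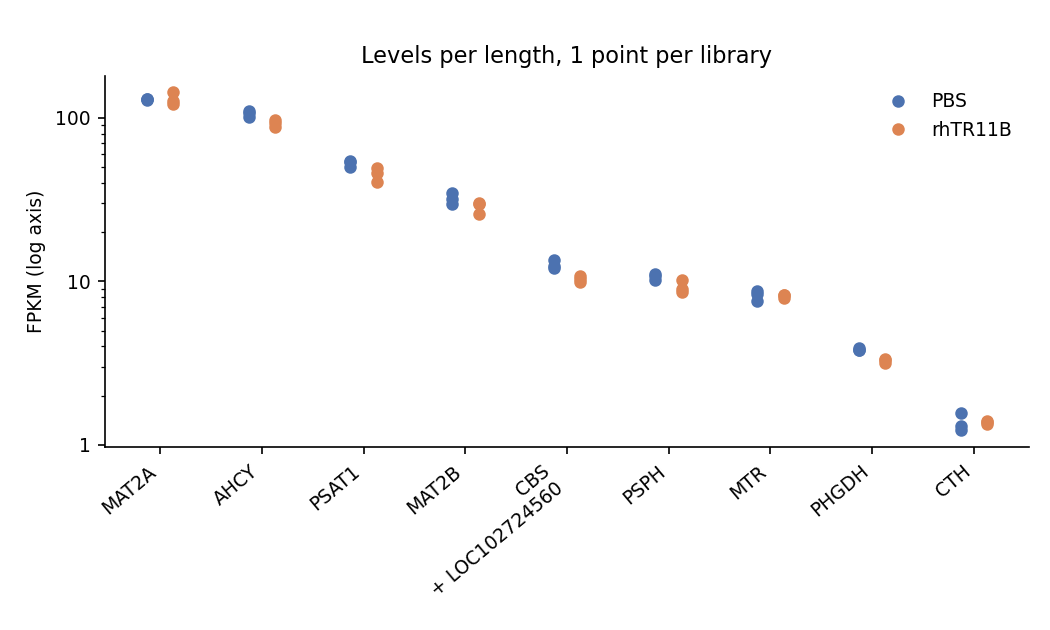
FPKM of each gene on a log axis, with 1 point per library and PBS beside rhTR11B; CBS and LOC102724560 are summed. MAT2A lies highest at 122.1 to 142.7 FPKM and CTH lowest at 1.23 to 1.56.

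In transsulfuration, the reads assigned to the copy stood lower with rhTR11B, while those assigned to CBS hardly moved. As the split between them is uncertain, this does not show a change of the copy alone. The control libraries held 722, 970 and 643 reads of LOC102724560 (replicates 1, 2 and 3, the order used throughout), and the treated ones held 432, 454 and 422. Every treated library lay below every control library, as for 14.0% of all genes tested, and the controls were spread more widely. As CPM, counts scaled to a common library size with TMM factors, the copy had 20.5 ± 4.28 with PBS and 12.0 ± 0.186 with rhTR11B (SD, n = 3 per group), a fitted log2 fold change of -0.78 (SE 0.12). For CBS the controls held 1014, 983 and 1092 reads and the treated libraries 919, 980 and 1039. Its groups overlapped, at 27.1 ± 1.56 and 26.9 ± 2.04 CPM (log2 fold change -0.01, SE 0.08, a description with no test).

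Added together, the pair had 1736, 1953 and 1735 reads in the controls against 1351, 1434 and 1461 after treatment. The sums of the 2 groups did not overlap. They came to 47.6 ± 2.78 and 38.8 ± 1.99 CPM, a fitted log2 fold change of -0.29 (SE 0.07) or 18.4% less. Of the difference of 8.73 CPM between the group means, 8.51 CPM were assigned to the copy and 0.220 to CBS, a split that is uncertain. With 1 library left out, the log2 fold change of the sum ran from -0.33 to -0.24.

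**Figure D2:**
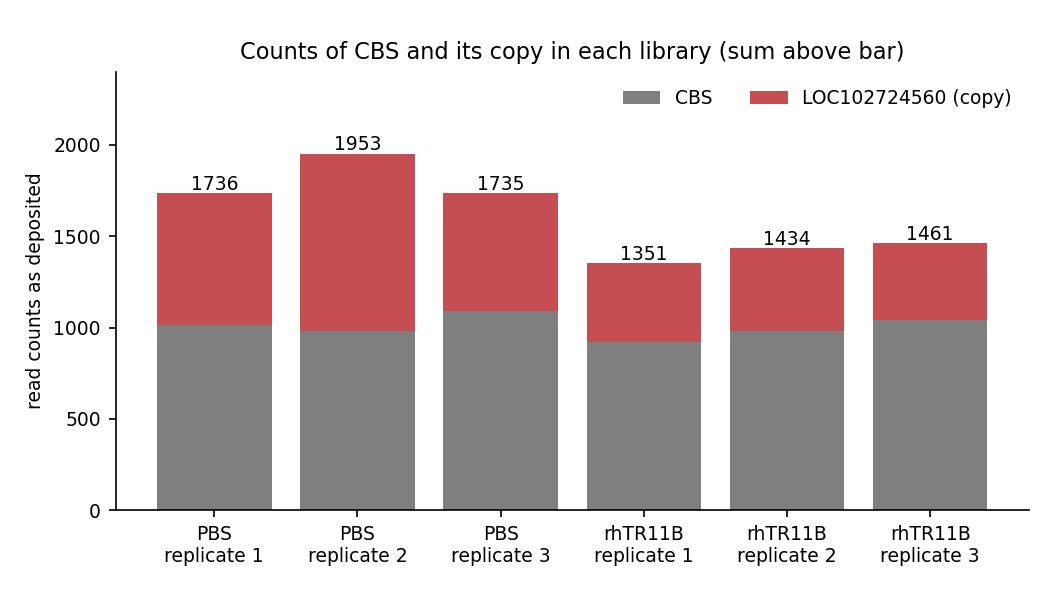
Deposited read counts of CBS (grey) and LOC102724560 (red), stacked for each library, with the sum above each bar. The grey parts lie between 919 and 1092 in all libraries, and the red parts at 643 to 970 with PBS and 422 to 454 with rhTR11B.

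The share of the pair's counts that fell on the copy was 41.6% (exact Clopper-Pearson 95% interval 39.3 to 44.0), 49.7% (47.4 to 51.9) and 37.1% (34.8 to 39.4) in the PBS libraries. It was 32.0% (29.5 to 34.5), 31.7% (29.3 to 34.1) and 28.9% (26.6 to 31.3) in the rhTR11B libraries. These intervals cover counting error only. The 3 rhTR11B shares lay close together and below all PBS shares. The interval of PBS replicate 2 lay apart from those of PBS replicates 1 and 3, which touched. PBS replicate 2 had the highest share, and without it the difference between the group means was -8.49 percentage points in place of -11.9.

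Other genes with a copy on the same chromosome show how such shares vary in these libraries. In all, 8 pairs listed for this purpose, the CBS pair among them, had both symbols in the table. The share on the copy ran from 33% to 55.4% over the 6 libraries for the splicing factor U2AF1, from 70.9% to 91.6% for the kinase SIK1, from 47.2% to 75.0% for GATD3 and from 76.7% to 92.9% for ICOSLG, against 28.9% to 49.7% for CBS. For SIK1 the low end came from rhTR11B replicate 2 alone, and no other library was below 86.45%. The U2AF1 and GATD3 pairs held only 251 to 330 and 292 to 509 counts, against 1351 to 1953 for the CBS pair, so their shares carry more counting error. The share moved by no more than 1.75 percentage points for PWP2 and TRAPPC10. For SMIM11 the 2 symbols together held only 3 to 187 counts, and its share ran from 0 to 45.5%. Of these 7 other pairs, the shares of PWP2 did not overlap between the groups either, at 98.8% ± 0.463 and 97.7% ± 0.384 (n = 3). The summed CPM of U2AF1 and of ICOSLG stood higher with rhTR11B without overlap, in the opposite direction to the CBS pair (from 7.03 ± 0.438 to 8.32 ± 0.472 and from 41.6 ± 4.51 to 50.1 ± 5.45). Values of single symbols depend on the uncertain split. In their fit, 1 of the 13 tested symbols of the other pairs rose and 1 fell, where 2.92% and 0.678% of all genes did. LOC102723996, the copy of ICOSLG, rose (log2 fold change 0.39, edgeR adjusted p = 0.0180) and SMIM11 fell (-3.85, adjusted p = 0.0147). SMIM11 itself had 126, 6 and 187 reads in the controls against 12, 6 and 3 after treatment, so its control libraries were far apart.

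**Figure D3:**
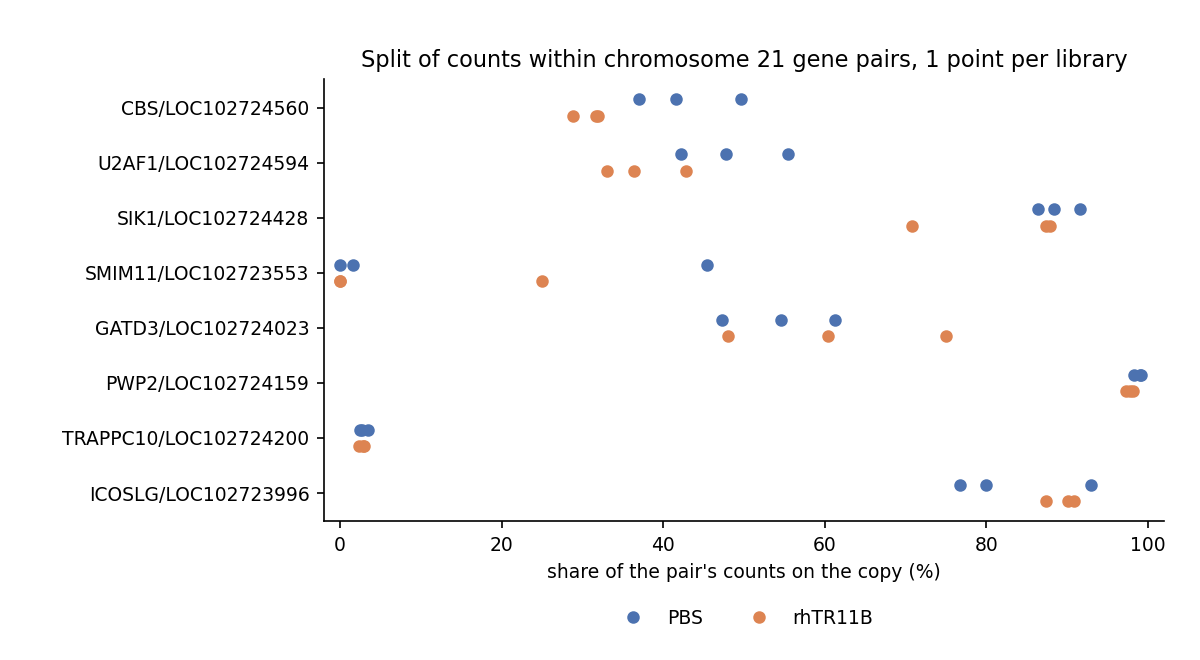
Share of each pair's counts assigned to the copy, in percent, with 1 point per library (blue PBS, orange rhTR11B). The CBS pair is on top, with PBS at 37.1% to 49.7% and rhTR11B at 28.9% to 32.0%.

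CTH, the second enzyme of transsulfuration, overlapped between the groups, with 218, 283 and 237 reads in the controls against 242, 236 and 242. The treated libraries lay inside the range of the controls, and the level of 6.47 ± 0.791 against 6.59 ± 0.237 CPM did not pass (log2 fold change 0.03, 95% interval -0.24 to 0.29, edgeR adjusted p = 0.925). Its sign turned without PBS replicate 1 (-0.04) and without PBS replicate 3 (-0.0027).

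Of the 8 members other than the pair, edgeR's quasi-likelihood test called 0 at a Benjamini-Hochberg adjusted p under 0.05, where it called 3.60% of all 13567 genes tested. Before adjustment, 5 of the 8 had p under 0.05 (PHGDH, PSAT1, PSPH, AHCY and MAT2B), each lower with rhTR11B, where 24.2% of all genes did. With DESeq2 there were 2 calls, AHCY (adjusted p = 0.0317) and PSAT1 (0.0499), where DESeq2 called 9.05% of the 11987 genes to which it gave an adjusted p. With limma-voom there were 0. The groups did not overlap for 4 of the 8, all lower, against 14.0% of all genes lower without overlap. Their median lay at -0.16 on the log2 scale, against 0.00 over all genes.

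**Figure D4:**
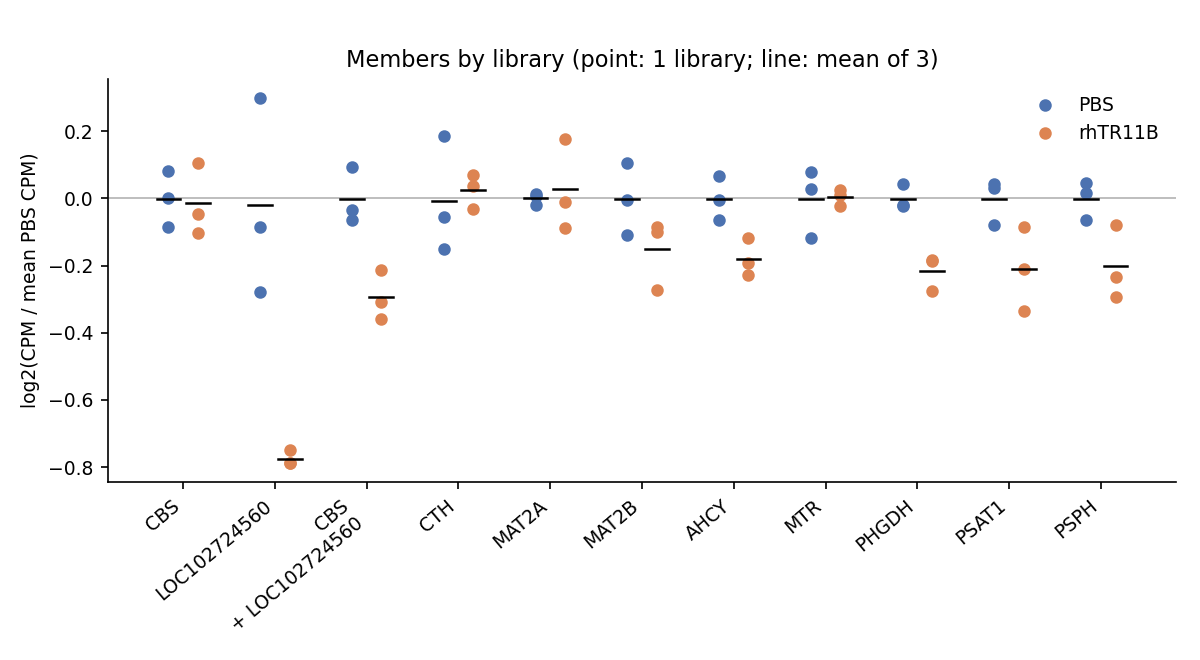
Log2 of the CPM in each library over the mean PBS CPM of the same gene, with 1 point per library and a line at the mean of 3 libraries (blue PBS, orange rhTR11B). LOC102724560 lies lowest, the 3 serine synthesis genes and AHCY lie below their controls without overlap, and CTH, MAT2A and MTR overlap.

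The 3 genes of serine synthesis stood lower by similar amounts, none past the test. PHGDH (chromosome 1, 119711934 to 119744215) oxidises 3-phosphoglycerate and commits it to serine. Its CPM were 28.9, 28.8 and 30.1 in the controls and 25.7, 24.2 and 25.7 after treatment. The libraries within each group lay close together, and the gap between the groups was wider than the spread within them (log2 fold change -0.21, SE 0.07, 95% interval -0.36 to -0.07, edgeR adjusted p = 0.0821). PSAT1 (chromosome 9, 78297125 to 78330093), the transaminase of the middle step, had 109.5, 118 and 119 CPM with PBS and 109, 99.9 and 91.7 with rhTR11B. PBS replicate 1 and rhTR11B replicate 1 nearly touched, and rhTR11B replicate 3 was lowest (log2 fold change -0.21, SE 0.07, adjusted p = 0.0764). Without rhTR11B replicate 1 PSAT1 passed (log2 fold change -0.27, adjusted p = 0.0242), and without rhTR11B replicate 3 it had -0.15 (adjusted p = 0.159). PSPH (chromosome 7, 56011064 to 56051444), the phosphatase that releases serine, had 36.2, 37.0 and 34.3 CPM with PBS and 30.5, 33.9 and 29.3 with rhTR11B. Its groups were apart by a narrow margin (log2 fold change -0.20, SE 0.07, 95% interval -0.35 to -0.04, adjusted p = 0.108). GENCODE 29 lists 1 pseudogene of PSPH, 4 of PSAT1 and 6 of AHCY, none of them used here, and reads that match both could have been counted either way.

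In the methionine cycle, AHCY and MAT2B stood lower, the groups of MAT2A and MTR overlapped, and no gene passed. AHCY (chromosome 20, 34231981 to 34311836) had 459.6, 478 and 502 CPM with PBS and 442, 420.1 and 409.5 with rhTR11B. All treated libraries lay below all controls, with rhTR11B replicate 3 lowest (log2 fold change -0.18, SE 0.06, 95% interval -0.31 to -0.05, edgeR adjusted p = 0.0851). MAT2B (chromosome 5, 163503064 to 163519354) had 77.2, 83.4 and 71.8 CPM with PBS and 73.1, 72.3 and 64.2 with rhTR11B. The groups overlapped through PBS replicate 3 (log2 fold change -0.15, SE 0.07, adjusted p = 0.196). It moved to -0.09 without PBS replicate 2 and also without rhTR11B replicate 3. MAT2A (chromosome 2, 85539168 to 85545281) is known to be regulated through the stability and splicing of its transcript when S-adenosylmethionine runs low. It had 357, 364 and 365 CPM with PBS and 359.9, 341 and 409.8 with rhTR11B. The controls were tight, and rhTR11B replicates 2 and 3 lay on either side of them (log2 fold change 0.03, 95% interval -0.11 to 0.17, adjusted p = 0.812). Without rhTR11B replicate 3 it had -0.05. MTR (chromosome 1, 236795281 to 236903981), the cobalamin-dependent synthase that remakes methionine from homocysteine, had 87.0, 99.6 and 96.2 CPM with PBS and 96.0, 95.01 and 92.8 with rhTR11B. All treated values lay inside the control range (log2 fold change 0.01, 95% interval -0.13 to 0.14, adjusted p = 0.969), and the sign turned with library size alone as scaling (-0.01), with no low-count filter (-0.0013), with each of the 3 FPKM settings (-0.0091 to -0.0084), and when PBS replicate 1 (-0.05) or rhTR11B replicate 1 (-0.01) was left out.

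Among genes around the methionine cycle, 2 of polyamine synthesis fell. Of 14 tested genes of the wider cycle, methionine salvage and polyamine synthesis, 2 fell, 0 rose and 12 did not pass, where 0.678% of all genes fell. Before adjustment in edgeR, 5 of the 14 had p under 0.05, against 24.2% of all genes. DESeq2 called the same 2, where it called 9.05% of all genes in either direction. The list's median log2 fold change was -0.12. The 2 were SRM, spermidine synthase, at 97.96, 107 and 108 CPM with PBS and 94.2, 83.6 and 82.6 with rhTR11B (log2 fold change -0.26, edgeR adjusted p = 0.0365), and SMS, spermine synthase, at 98.3, 110.0 and 107 against 93.2, 91.2 and 79.0 (-0.26, adjusted p = 0.0460). For both, all treated libraries lay below all controls. AMD1, which decarboxylates S-adenosylmethionine for these synthases, stood at -0.21 (adjusted p = 0.0841), and ENOPH1 of the salvage pathway at -0.23 (0.0920). AMD1 passed without rhTR11B replicate 1 (-0.29, adjusted p = 0.0243) and had -0.13 without rhTR11B replicate 3. The calls depended on the libraries: SRM passed in 3 of the 6 fits with 1 library left out (adjusted p up to 0.187) and SMS in 1 (up to 0.209), and neither passed without PBS replicate 2, PBS replicate 3 or rhTR11B replicate 2. SMS also lost its call without PBS replicate 1 (0.0502) and without rhTR11B replicate 3 (0.0640, log2 fold change -0.19).

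Of 14 tested folate genes, which carry the carbon unit released from serine, edgeR called 0 and DESeq2 called 1, a share below the 9.05% of all genes. The log2 fold change was below 0 for 13 of them, and the list's median was -0.08. None of the genes with the smallest p passed: the mitochondrial MTHFD2 (from 133.8 ± 4.88 to 114.9 ± 11.4 CPM, log2 fold change -0.22, edgeR adjusted p = 0.0713), MTHFD1L (-0.13, 0.187), and the serine hydroxymethyltransferases SHMT2 (-0.10, 0.290) and SHMT1 (-0.10, 0.315). Before adjustment, 2 of the 14 had p under 0.05, also a smaller share than the 24.2% of all genes. MTHFD2 passed without rhTR11B replicate 1 (adjusted p = 0.0313) and had -0.14 without rhTR11B replicate 3.

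Of 14 tested genes that use cysteine for glutathione, taurine or sulfide, edgeR and DESeq2 called 0, with 2 under 0.05 before adjustment, against 24.2% of all genes, and a median of -0.01. Glutathione reductase GSR stood at -0.23 (edgeR adjusted p = 0.0749), the ligase subunit GCLC at -0.16 (0.159), SLC3A2, a chain of the cystine importer, at 0.16 (0.250), and glutathione synthetase GSS at -0.11 (0.256). GSR passed without rhTR11B replicate 1 (adjusted p = 0.0373), and SLC3A2 had 0.02 without rhTR11B replicate 3.

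Genes that move or use serine and glycine were mixed, and 1 of 13 tested rose, where 2.92% of all genes rose. DESeq2 called 3 of the 13 in either direction, against 9.05% of all genes, and 7 had p under 0.05 before adjustment in edgeR, against 24.2%. The median log2 fold change was 0.10. The 1 was SLC38A2, an importer of small neutral amino acids with serine among them. It had 1533, 1451 and 1345 CPM in the controls against 1635, 1795 and 1779, with every treated library above every control (log2 fold change 0.27, edgeR adjusted p = 0.0404). It passed in 2 of 6 fits with 1 library left out, those without rhTR11B replicates 1 and 3, and lost the call without each of PBS replicates 1, 2 and 3 (adjusted p = 0.0502, 0.189 and 0.208) and without rhTR11B replicate 2 (0.0896). With library size alone its adjusted p was 0.0526. SPTLC2, a subunit of the enzyme that joins serine to a fatty acid, stood at 0.20 (0.0612), the glycine transporter SLC6A9 at 0.32 (0.0647) and the mitochondrial serine carrier SFXN1 at -0.18 (0.0864). SLC6A9 passed when rhTR11B replicate 1 (adjusted p = 0.0415) or replicate 2 (0.0420) was left out, and had 0.20 without rhTR11B replicate 3 (0.230). SPTLC2 passed without rhTR11B replicate 1 (0.0463).

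ATF4, the factor of the amino acid response, had 267.9 and 257.5 CPM in the PBS and rhTR11B groups and did not pass (log2 fold change -0.06, edgeR adjusted p = 0.625). Of 23 tested genes in the list of ATF4 and its targets, edgeR called 0 and DESeq2 1, against 9.05% of all genes, with 7 under 0.05 before adjustment in edgeR, against 24.2%. In all, 16 were negative, with a median of -0.10. The smallest p values were those of the translation repressor EIF4EBP1 (-0.25, adjusted p = 0.0645), the mTOR inhibitor DDIT4 (0.22, 0.110), the stress factor DDIT3 (-0.23, 0.130) and the seryl-tRNA synthetase SARS1 (-0.15, 0.159). EIF4EBP1 passed without rhTR11B replicate 1 (adjusted p = 0.0201). DDIT4 passed when rhTR11B replicate 1 (0.04996) or replicate 3 (0.0330) was left out, and had 0.11 without rhTR11B replicate 2. SARS1 had -0.09 without rhTR11B replicate 3.

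**Figure D5:**
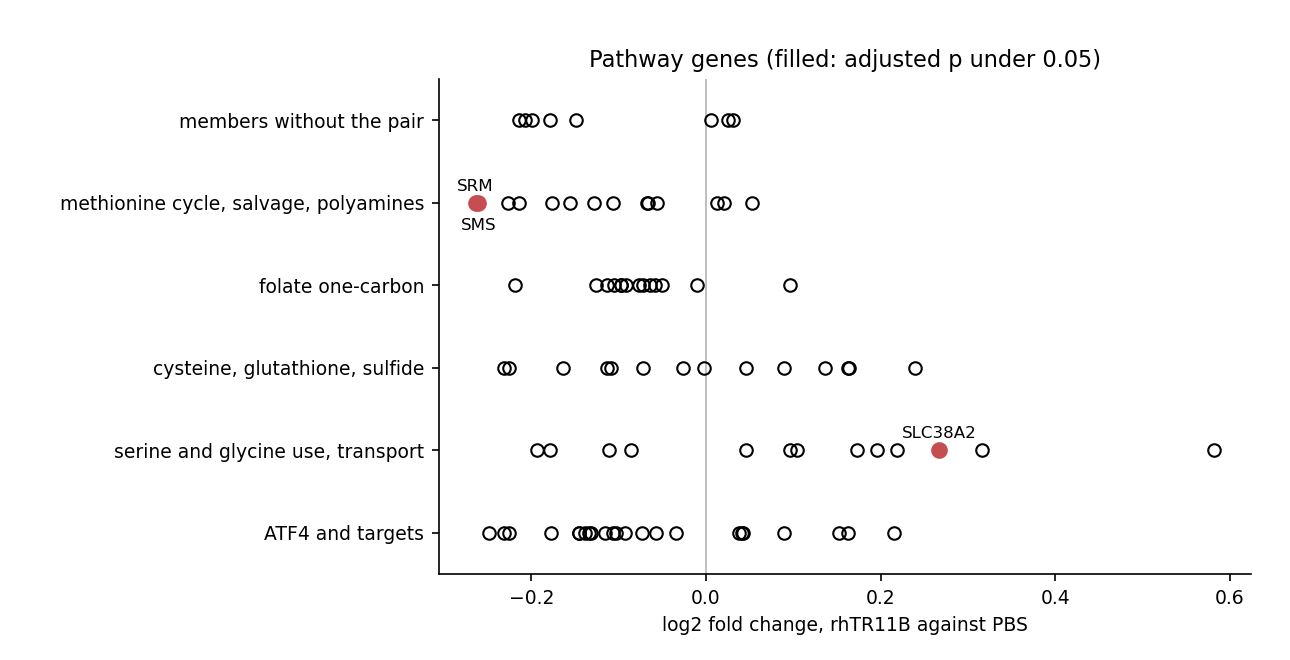
Log2 fold change of each tested gene with rhTR11B against PBS, 1 row per list and 1 circle per gene, filled where the adjusted p is under 0.05. SRM and SMS at -0.26 and SLC38A2 at 0.27 are the filled circles, and 13 of 14 folate genes lie left of 0.

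Over the 6 libraries, the profile of the summed pair was compared with those of 9399 genes with a mean of at least 10 CPM, by the root mean square difference of log2 CPM after subtracting each gene's mean. The 5 closest were MIPOL1 (0.0336), MMAB (0.0539), NME7 (0.0572), MAP3K14 (0.0619) and ZNF569 (0.0620), where the median over all genes was 0.168. Each of these 5 had a lower mean CPM with rhTR11B, as the choice by likeness to the pair makes likely. Among the other members PHGDH was closest to the pair (0.0895), then PSPH (0.104) and AHCY (0.115), and CTH was farthest (0.177). A gene with no variation over the libraries would have 0.159, close to the median over all genes. The pair was chosen by the fall of its copy, so this order largely restates which members stood lower. It is a description with no test.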

How the data were processed

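The authors' deposited tables hold read counts and FPKM per gene symbol for 6 libraries. TRIzol RNA and VAHTS Universal V6 libraries were used, per the labels' protocols. Fastp, HISAT, HTSeq, R 3.2.0, DESeq2 and build GRCh38 are named in the submitters' processing notes; the sources used here give no roles, annotation, strand setting or rule for reads with several matches. If strand was not used, a gene and its antisense partner cannot be told apart. The deposited FPKM matched count over length and library total for 100% of values above 0 (relative tolerance 0.001). The length of each gene was the median implied by the same counts and FPKM. The match thus shows a constant implied length across libraries, and the lengths themselves were not checked.

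From the deposited counts, edgeR 4.0.16 (R 4.3.3) was run with filterByExpr (minimum count 10), TMM and the quasi-likelihood test on group alone, with Benjamini-Hochberg adjustment over 13567 genes. For the pair, both symbols were replaced by their sum in each library and the same fit was run. A standard error is the log2 fold change over the root of F. Replicates differed by 5.13 to 24.7 times sampling noise (chi-square per degree of freedom), so none was counted as 1 library. The fit was first tested on simulated counts.

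Members and lists were chosen with earlier results of these data known. Named are all members, in each of 5 pathway lists the called genes filled up to 4 by smallest p, the tested chromosome 21 pairs, and the 5 profiles nearest to the summed pair; ATF4 was added after its values were seen. Alternatives were other scaling, DESeq2 1.42.0, limma-voom (limma 3.58.1), other filters, a replicate block, limma-trend on log2 FPKM (pseudocount 1 or 0.1), and leaving out each library. Of the symbols, 18832 matched the RefSeq table of GRCh38.p14, which gave coordinates, and 9 of the 10 members matched its upstream windows.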

Additional observations from a re-analysis of the deposited data

How the results depend on the processing

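The 488 genes called became 1085 with DESeq2's Wald test, 1423 without the low-count filter, 231 with a mean of at least 5 CPM, 83 and 86 with log2(FPKM + 1) and log2(FPKM + 0.1) at a mean FPKM of at least 1, and 0 with log2(FPKM + 1) and no filter (3073 at an unadjusted p under 0.05). With 1 library left out they ran from 12 without PBS replicate 3 (23 without PBS replicate 2, 282 without PBS replicate 1) to 1330 without rhTR11B replicate 1. Of the 8 tested members, 2 were called with DESeq2 (AHCY and PSAT1), 1 without the low-count filter (PSAT1), and from 0 to 1 with 1 library left out. Over the 5 pathway lists, calls in methionine, folate, cysteine, serine and ATF4 lists of 2, 0, 0, 1 and 0 became 2, 1, 0, 3 and 1 with DESeq2, 3, 1, 1, 2 and 2 without the low-count filter, 2, 0, 0, 0 and 0 with library size alone, and 0 in each list with at least 5 CPM or with FPKM. The pair's summed log2 fold change of -0.29 became -0.012 with CBS alone and -0.78 with LOC102724560 alone. With 1 library left out it ran from -0.33 to -0.24, and the difference in share on the copy from -14.8 to -8.49 percentage points. The cause of these changes was not tested.

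With the replicate block, 1026 genes and 1 member (PSAT1, edgeR adjusted p = 0.0494) were called, the lists had 3, 1, 1, 2 and 1 calls, and the summed pair kept -0.29. Deviations of same-numbered libraries correlated at -0.10, 0.05 and -0.01, and 1 of 6 libraries correlated best with its own number, so the numbers were not taken as pairs. How much of the spread between libraries is counting error was not tested for the members. CTH, with 218 to 283 counts, had the fewest counts and so the largest relative counting error.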
